A study of Mus musculus with 61 samples.

Results

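The 9 genes described here, which fibroblasts of the brain coverings are known for, were followed through the mouse brain: Dcn, Ogn, Lum, Col1a1, Col1a2, Igf2, Ptgds, Slc6a13 and Aldh1a2. They were taken as a list of names, chosen with earlier results of these data known, as were the gene lists below. Counts set against the share of all probes are therefore a description and not an independent test. Each gene was measured by its probe with the highest mean intensity, and these are 9 of 15530 named genes detected here. The 6 male C57BL/6J mice, 8 weeks of age and without any treatment, gave 1 brain each, which was cut in 5 µm sections, and 200 sections were pooled to a fraction of 1 mm. The S and So brains were cut in the sagittal plane (9 and 10 fractions), C and Co in the coronal plane (13 and 16) and H and Ho in the horizontal plane (6 and 7), where So, Co and Ho were slightly oblique. RNA of each of the 61 fractions was hybridized to its own single-color Agilent array. The first and last fractions of a series, 12 in all, are called ends, and the other 49 inner fractions. Each brain has its own left and right, posterior and anterior, or dorsal and ventral end. The S labels begin at fraction 2, and the fraction labelled 1 was not analysed here, so that the left end of S (S1) may not be the outermost tissue.

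The meninges are the dura, arachnoid and pia, sheets of connective tissue that wrap the brain and follow its larger fissures and vessels. Their fibroblasts secrete collagens and small leucine-rich proteoglycans, take up solutes by transporters and make retinoic acid and prostaglandin D2 synthase. A slab at the face of the brain holds more of its covering than a slab through the interior, whose rim still carries meninges. In bulk fractions, more cells of a type and more RNA per cell cannot be told apart.

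Promoters were looked up because the levels of the genes varied together over the fractions. RefSeq promoter sequences (build GRCm38.p6, 250 bases before to 50 after the start) were found for 6 of the 9 genes, and the 3 with a single entry and a match are printed, 5′ to 3′ on the strand of the gene, with matches in capitals. Each of 5 motifs was searched on both strands, with overlaps allowed. A search for CCAAT covered the box of that name, which many promoters carry upstream of their start. The letters of a common box near the start, TATAAA, were taken next. For the box that Sp factors bind in promoters the search used GGGCGG alone. The core that forkhead proteins such as those of the meninges bind was searched as GTAAACA in the same windows. For nuclear receptors, among them those for retinoic acid, the repeated unit AGGTCA was used.
Ogn, chr13:49607765-49608064, plus strand: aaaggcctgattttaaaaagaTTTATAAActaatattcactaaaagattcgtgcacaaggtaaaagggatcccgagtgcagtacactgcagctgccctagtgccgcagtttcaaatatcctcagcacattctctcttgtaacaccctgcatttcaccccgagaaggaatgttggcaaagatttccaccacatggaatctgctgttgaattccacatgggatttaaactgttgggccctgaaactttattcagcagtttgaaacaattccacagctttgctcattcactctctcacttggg
Aldh1a2, chr9:71215539-71215838, plus strand: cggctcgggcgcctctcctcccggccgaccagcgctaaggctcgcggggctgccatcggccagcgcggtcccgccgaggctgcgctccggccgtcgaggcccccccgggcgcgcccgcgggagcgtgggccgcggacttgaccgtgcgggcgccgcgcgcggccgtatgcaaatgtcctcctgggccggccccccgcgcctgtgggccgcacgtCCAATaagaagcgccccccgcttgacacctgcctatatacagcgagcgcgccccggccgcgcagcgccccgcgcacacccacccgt
Col1a2, chr6:4505368-4505667, plus strand: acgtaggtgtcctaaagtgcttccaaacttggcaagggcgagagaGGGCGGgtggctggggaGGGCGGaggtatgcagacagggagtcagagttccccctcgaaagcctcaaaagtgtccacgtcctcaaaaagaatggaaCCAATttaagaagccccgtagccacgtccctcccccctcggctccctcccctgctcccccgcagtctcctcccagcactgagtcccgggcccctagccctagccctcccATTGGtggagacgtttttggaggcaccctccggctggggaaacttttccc
In Ogn the 2 overlapping matches of TATAAA, on opposite strands, began at -229 and -227, counted from the start at 0, and in Aldh1a2 CCAAT began at -36. Col1a2 had CCAAT at -109 and 0 and GGGCGG at -205 and -188. The Ogn promoter was 42.3% G and C and the Aldh1a2 promoter 78.0%, against a median of 52.7% over 32851 promoters. CCAAT was present in 5 of the 11 promoter entries of these genes and in 37.4% of all, GGGCGG in 4 and in 35.7%, AGGTCA in 2 and in 16.3%, TATAAA in 1 and in 13.6%, and GTAAACA in 0 and in 3.65%. The entry of Ptgds held none of these letters in this window. Dcn, Lum and Col1a1 had no entry.

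The signal at the 75th percentile of the probes lay between 737.5 and 1919 units over the 61 arrays, and 57.9% to 73.1% of the probes were well above background. The probe of each of the 9 genes was well above background on all 61 arrays, and no spot was saturated. All levels are log2 intensities relative to the 75th percentile of the array, so that a level is compared between fractions of a gene and never between genes. The names of the ends were checked with lists of 6 regional genes each. At the posterior ends 5 of 6 hindbrain genes were called higher than in the inner fractions (Hoxb3 by 3.59 on the log2 scale, Hoxc4 being the exception at 0.02), at the anterior ends 6 of 6 genes of the olfactory bulb (Doc2g by 6.18), at the dorsal ends 3 of 6 genes of upper cortex and at the ventral ends 2 of 6 genes of the hypothalamus (Agrp by 4.46 and Oxt by 5.57). For the lateral list 0 genes were called at the left or right ends in limma, so that these ends were not shown to fit their names. The p-values for the ends against the inner fractions rest on the spread over the 6 brains, as does the SD with n = 6. Each brain was cut in 1 plane and has its own faces, so this spread holds differences between planes as well as between mice. For Dcn the differences were 0.21 and 0.24 in S and So, 1.87 and 1.79 in C and Co, and 0.55 and 0.52 in H and Ho. The p-values for a single end rest on 12 differences with 2 mice per end, and those over pairs of fractions rest on the gap between the 2 brains of a pair. The number of mice limits the precision. Arrays were scanned on 5 days, S1 and C13 on another day than the rest of their series. With the ends of the main scan day only, the differences of the 9 genes were between 0.39 and 1.14, and within slides between 0.27 and 1.03.

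The mean of the 2 ends minus the mean of the inner fractions was above 0 for each of the 9 genes over the 6 mice, with a mean between 0.45 (Lum) and 1.09 (Aldh1a2) on the log2 scale. None passed an adjusted p of 0.05 in limma over 36573 detected probes (adjusted p between 0.0627 and 0.235), while 0.522% of all probes were called higher at the ends. At an unadjusted p under 0.05, 8 of the 9 were higher, against 12.6% of all probes. The median difference was 0.66 over the 9 genes and 0.02 over all probes. Of the 54 differences (9 genes in 6 mice), 46 were above 0. Dcn was higher at the ends in 6 of 6 mice, which held for 8.6% of all probes, and the other 8 in 5 of 6. All 8 exceptions came from the S brain. When S was left out, Ogn, Lum, Ptgds, Slc6a13 and Aldh1a2 passed the threshold, while the number of probes called higher went from 191 to 792 of 36573. Leaving out any other single mouse left 0 of the 9 genes called.

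**Figure D1:**
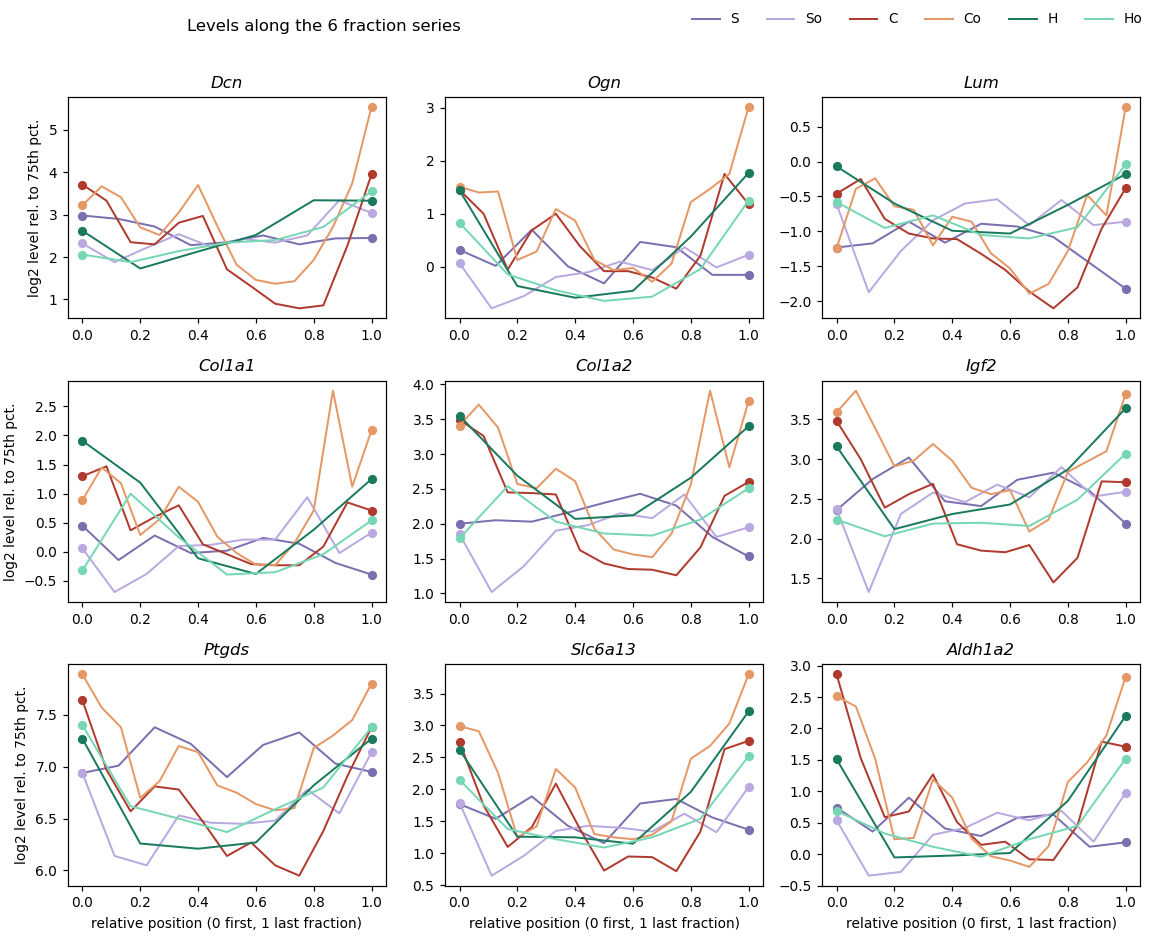
Level of each gene (log2 relative to the 75th percentile of the array) against the relative position in the series, from the first (0) to the last fraction (1), with the ends as dots. The coronal (C, Co) and horizontal (H, Ho) lines are high at the ends for most genes, and the sagittal lines (S, So) are flatter.

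Dcn encodes decorin, a small leucine-rich proteoglycan that binds collagen fibrils. In C, Dcn was at 3.71 at the posterior and 3.95 at the anterior end, against 0.79, 2.27 and 3.33 (lowest, median and highest) in 11 inner fractions. In Co, it was at 3.22 and 5.54, against 1.37, 2.71 and 3.74 in 14 inner fractions. Both ends of C lay above every inner fraction, whereas in Co the anterior end did and the posterior end ranked sixth. In H, the dorsal end was at 2.62 and the ventral end at 3.33, with 1.73, 2.13, 2.52 and 3.34 between them. In Ho, the ends were at 2.06 and 3.55, with 1.88, 2.14, 2.34, 2.40 and 2.71 between them. From top to bottom of the horizontal series the level was thus highest at or next to the base. In S the ends were at 2.98 and 2.45 against 2.28, 2.44 and 2.90 in 7 inner fractions, and in So at 2.32 and 3.04 against 1.88, 2.38 and 3.34 in 8. The ends of the sagittal brains overlapped the inner fractions. Over the mice, the difference was 0.86 ± 0.76 (SD, n = 6), or 1.82-fold, with an adjusted p of 0.119 (limma). The exact sign-flip permutation p was 0.0312, two-sided, the smallest that 6 mice allow. For the other genes of the list this exact permutation p lay between 0.0625 and 0.156.

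Ogn encodes osteoglycin, a proteoglycan of the same class. In C, Ogn was at 1.45 and 1.18 at the ends against -0.41, 0.21 and 1.75 in the inner fractions, and its highest level was in C12, next to the anterior end. In Co, the ends were at 1.51 and 3.01 against -0.28, 0.58 and 1.75. In H, the ends were at 1.44 and 1.77, with -0.36, -0.58, -0.45 and 0.57 between them. In Ho, they were at 0.83 and 1.25, with -0.14, -0.44, -0.64, -0.56 and -0.04 between them. In both horizontal brains the ends stood apart from every inner fraction. In S the ends were at 0.32 and -0.15 against -0.31, 0.02 and 0.70, and in So at 0.07 and 0.23 against -0.78, -0.08 and 0.37, which overlap. The difference over the mice was 0.99 ± 0.75 (SD, n = 6; adjusted p = 0.0888, limma).

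Lum encodes lumican, which keeps collagen fibrils thin and evenly spaced in the cornea. In C, Lum was at -0.46 and -0.38 at the ends against -2.10, -1.11 and -0.25 in the inner fractions, and in Co at -1.24 and 0.78 against -1.89, -0.83 and -0.24. The posterior end of Co was thus below the inner median, and Co16 held the highest level of the 61 fractions. In H, the ends were at -0.07 and -0.18 with -0.60, -0.99, -1.03 and -0.62 between them, and in Ho at -0.58 and -0.04 with -0.95, -0.77, -1.05, -1.10 and -0.94 between them. The horizontal ends lay above every inner fraction. In S, both ends (-1.23 and -1.82) were below the inner median of -1.08, and in So they were at -0.61 and -0.86 against -1.87, -0.87 and -0.54. The difference was 0.45 ± 0.49 (SD, n = 6; adjusted p = 0.182, limma).

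Col1a1 and Col1a2 encode the chains of type I collagen, the main fibrillar collagen of the dura. In C, Col1a1 was at 1.3 and 0.71 at the ends against -0.23, 0.13 and 1.47 in the inner fractions, and in Co at 0.89 and 2.09 against -0.23, 0.63 and 2.77. The highest level of Col1a1, 2.77, was in Co14, and that of Col1a2, 3.91, was in the same fraction. Col1a2 was at 3.49 and 2.60 at the ends of C against 1.26, 1.66 and 3.26, and at 3.41 and 3.76 at those of Co against 1.52, 2.57 and 3.91. In H, Col1a1 was at 1.91 and 1.25 at the ends with 1.19, -0.11, -0.38 and 0.38 between them, and Col1a2 at 3.55 and 3.40 with 2.69, 2.07, 2.12 and 2.66. Both genes were thus highest at the faces of the H brain. In Ho, however, the dorsal end was low for both, at -0.32 for Col1a1 with 1.00, 0.25, -0.39, -0.35 and -0.04 in the inner fractions, and at 1.79 for Col1a2 with 2.54, 2.03, 1.86, 1.83 and 2.06. The highest Ho fraction was the second, Ho2, for both. In S, Col1a1 ran from 0.45 to -0.39 between the ends with -0.19, 0.02 and 0.28 inside, and in So it was at 0.06 and 0.33 with -0.69, 0.11 and 0.94. Col1a2 was below its inner median at both ends of S, at 2.00 and 1.53 against 2.16, and at 1.85 and 1.95 against 1.94 in So. The end minus inner difference was 0.48 ± 0.53 for Col1a1 and 0.50 ± 0.66 for Col1a2 (SD, n = 6; adjusted p of 0.181 and 0.235, limma). A further Col1a1 probe, well above background on all arrays, gave 0.40, was higher in 3 of 6 mice (adjusted p = 0.308) and followed the first with r = 0.969 across the 61 fractions.

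Igf2 encodes insulin-like growth factor 2, which in the adult brain is known from the meninges and the choroid plexus. In C, Igf2 was at 3.48 and 2.71 at the ends against 1.45, 1.93 and 3.00 in the inner fractions, and in Co at 3.59 and 3.82 against 2.09, 2.94 and 3.86. The next-to-end fraction Co2 was the highest of all, at 3.86. In H, the ends were at 3.16 and 3.64 with 2.12, 2.31, 2.43 and 2.87 between them, and in Ho at 2.24 and 3.07 with 2.03, 2.19, 2.20, 2.16 and 2.49. The ventral end was the highest in both. In S, the ends (2.36 and 2.19) were below each of the 7 inner fractions (2.41, 2.74 and 3.02), and in So they were at 2.37 and 2.59 against 1.33, 2.52 and 2.90. The difference was 0.46 ± 0.55 (SD, n = 6; adjusted p = 0.205, limma), and the other Igf2 probe gave 0.37 and was higher in 4 of 6 mice (adjusted p = 0.309).

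Ptgds encodes the lipocalin-type prostaglandin D2 synthase, a protein secreted into the cerebrospinal fluid by meninges and choroid plexus and also made by oligodendrocytes. In C, Ptgds was at 7.64 and 7.38 at the ends against 5.95, 6.47 and 6.97 in the inner fractions, and in Co at 7.89 and 7.80 against 6.58, 7.00 and 7.57. In H, both ends were at 7.27 with 6.26, 6.21, 6.27 and 6.82 between them, and in Ho the ends were at 7.40 and 7.38 with 6.62, 6.50, 6.37, 6.59 and 6.80. In So they were at 6.94 and 7.14 against 6.05, 6.47 and 6.78. Both ends thus lay above every inner fraction in 5 of 6 brains. The exception was S, with ends at 6.94 and 6.95 against 6.90, 7.21 and 7.38. The difference was 0.66 ± 0.44 (SD, n = 6), the smallest spread over mice among the 9 genes, with an adjusted p of 0.0785 (limma). With the median of each array as the scaling, Ptgds and Slc6a13 passed the threshold, as did 737 probes in all among those higher.

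Slc6a13 encodes GAT2, a transporter of GABA and taurine found in the leptomeninges and outside the brain. In C, Slc6a13 was at 2.74 and 2.76 at the ends against 0.72, 1.34 and 2.63 in the inner fractions, and in Co at 2.99 and 3.8 against 1.22, 1.77 and 3.03. In H, the ends were at 2.62 and 3.22 with 1.26, 1.25, 1.15 and 1.96 between them, and in Ho at 2.15 and 2.52 with 1.38, 1.22, 1.09, 1.25 and 1.54. In So they were at 1.79 and 2.04 against 0.65, 1.35 and 1.62. The ends stood above all inner fractions in H, Ho, C and So, and 9 of the 12 ends did in all. In S they were at 1.77 and 1.37 against 1.16, 1.56 and 1.89. The difference was 1.00 ± 0.60 (SD, n = 6), or 2.01-fold, with the lowest adjusted p of the 9 genes, 0.0627 (limma). Its other probe gave 1.03 and was higher in 6 of 6 mice (adjusted p = 0.0611).

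Aldh1a2 encodes retinaldehyde dehydrogenase 2, the enzyme that makes retinoic acid in the meninges. In C, Aldh1a2 was at 2.86 and 1.71 at the ends against -0.09, 0.51 and 1.79 in the inner fractions, and in Co at 2.51 and 2.82 against -0.20, 0.58 and 2.35. In H, the ends were at 1.51 and 2.20 with -0.05, -0.02, 0.02 and 0.85 between them, and in Ho at 0.69 and 1.52 with 0.33, 0.12, -0.04, 0.24 and 0.45. In Co, H and Ho both ends lay above every inner fraction. In S, the ends were at 0.74 and 0.19 against 0.12, 0.41 and 0.90, and in So at 0.54 and 0.98 against -0.34, 0.36 and 0.69. Its difference was the largest of the 9, 1.09 ± 0.76 (SD, n = 6), or 2.13-fold (adjusted p = 0.0765, limma).

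**Figure D2:**
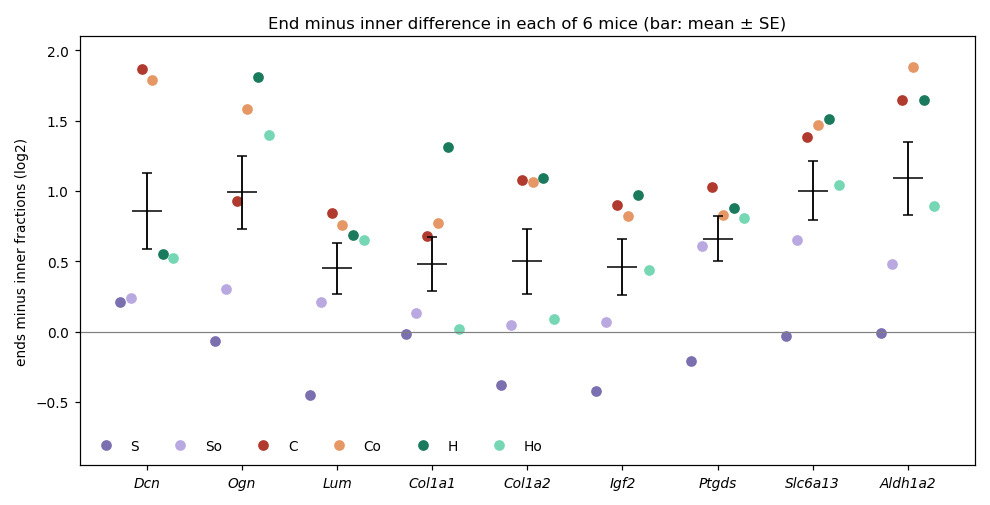
Mean of the ends minus mean of the inner fractions (log2) for each gene in each mouse (dots), with the mean and its standard error from limma (bars). The S dots are at or below 0 for every gene but Dcn, and the coronal and horizontal dots are above 0.

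Counted by brain, both ends were above all inner fractions for 8 of 9 genes in H, where this held for 11.1% of all probes, and for 5 in Ho (17.4%). The count was 3 in C (6.23%), 2 in Co (5.11%), 2 in So (13.2%) and 0 in S (13.7%). The highest fraction was an end in 5 of 6 brains for Ptgds, Slc6a13 and Aldh1a2, against 11.0% of all probes that reached 5 or more. Within brains the genes had a median difference of 1.09 in H, 1.06 in Co, 1.03 in C and 0.65 in Ho, against 0.24 in So and -0.07 in S.

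The planes were set against each other because the sagittal brains stood apart, a test added after seeing the data. The mean difference was 0.23 for Dcn in the sagittal, 1.83 in the coronal and 0.53 in the horizontal brains, and for Aldh1a2 0.24, 1.77 and 1.27. Both sagittal brains were below the other 4 for 8 genes, Col1a1 being the exception, and for 11.8% of all probes. The sagittal mean was lower than the mean of the other planes by 0.64 (Col1a1) to 1.32 (Ogn). In limma, 0 of the 9 genes and 0.0% of all probes passed an adjusted p of 0.05 for this contrast (adjusted p between 0.114 and 0.402), while 8 genes and 9.81% of all probes were lower at an unadjusted p under 0.05. No difference between the sagittal and the other planes was thus shown for any of these genes. The coronal and horizontal brains were not tested against each other.

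Each end was then compared with the inner fractions of its own brain, with 2 mice per end and the mouse as a random block. Against the neighbouring fraction only, none of the 12 calls given here was made (0 at each end), while 42 probes were called higher against 8170. At the anterior end 6 of 9 genes rose, where 10.6% of all probes were called higher. Dcn was 2.47 ± 0.37 (SE) above the inner fractions, or 5.54-fold, with an adjusted p of 0.00359. Slc6a13 was higher by 1.64 ± 0.26 (adjusted p = 0.00404), Ogn by 1.56 ± 0.34, Aldh1a2 by 1.56 ± 0.34, Lum by 1.32 ± 0.34 and Ptgds by 0.84 ± 0.21. When Co16 was left out, a check added after seeing the data, Dcn and Slc6a13 still passed and the other 4 did not. The anterior end was then C13 alone, whose spread is assumed to be that of the other ends. C13 was on another slide and scan day than the rest of C, which cannot be told apart from its position. Its differences were 1.99 for Dcn, 1.40 for Slc6a13, 1.08 for Aldh1a2, 0.90 for Ptgds, 0.88 for Lum and 0.80 for Ogn. For Ptgds the value of C13 was above that of Co16 (0.79), and for the other 5 it was below. The anterior call of Ptgds was also lost with normexp and quantile normalization. The anterior ends also held Omp of olfactory sensory neurons at 5.75 above the inner fractions, and other cells differed there too, with 7 of 8 genes of border macrophages (median 1.40), 6 of 10 of endothelium (0.67) and 2 of 4 of blood (1.22) called higher. The part of these cells and of olfactory tissue in the values was not tested.

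At the posterior end 4 of 9 genes rose, where 7.34% of all probes did. Aldh1a2 was 1.97 ± 0.34 (SE) above the inner fractions, or 3.93-fold (adjusted p = 0.0108), Slc6a13 1.22 ± 0.26, Ptgds 1.02 ± 0.21 and Igf2 1.00 ± 0.24. Col1a2 at 1.21 (adjusted p = 0.0544) and Dcn at 1.19 (adjusted p = 0.0695) did not pass. Dcn passed with no replicate block, and Ogn without Co16. At the same end 10 of 10 myelin genes, 3 of 4 blood genes, 3 of 7 astrocyte genes, 2 of 8 border macrophage genes and 2 of 8 neuron genes were called higher, and their part was not tested. At the dorsal end Ogn (1.42 ± 0.34, adjusted p = 0.044) and Slc6a13 (1.03 ± 0.26, adjusted p = 0.0484) rose, where 2.57% of all probes did, and Dcn stood at -0.02. The call of Slc6a13 was lost with no replicate block and without Co16, and that of Ogn was kept in both. Ptgds at 0.85 (adjusted p = 0.05) did not pass, but did with median scaling and with the authors' values. Called higher at the dorsal ends were also 1 of 8 border macrophage genes, 1 of 10 of endothelium, 1 of 7 of astrocytes and 1 of 9 of muscle and bone. Their part was not tested. At the ventral end each gene was above the inner fractions, by 0.71 (Col1a1) to 1.79 (Ogn), but 0 passed the adjusted threshold, as did 0.123% of all probes, and 6 genes against 7.54% of all probes were higher at an unadjusted p under 0.05. Slc6a13 passed there with median scaling, with normexp and quantile normalization and with the authors' values, and Ogn without Co16. Of 8 pituitary genes, Pomc was called higher at the ventral ends, by 2.86 (adjusted p = 0.0395). The other 7 did not pass, and the median of the list was 1.94 at the ventral ends. Lhb, also well above background on all 61 arrays, was at -0.18. Measured partly against background were Cga at 6.90 (well above background on 19 arrays), Prl at 3.64 (22 arrays), Gh at 2.46 (18 arrays) and Tshb at 1.43 (10 arrays), as were Fshb at -0.02 (10 arrays) and Pou1f1 at 0.07 (2 arrays). Border macrophage genes had a median of 1.03 at the ventral ends and blood genes 1.11, with 0 called, against 1.03 over the 9 genes. The part of pituitary tissue, of these cells and of blood in the values was not tested.

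At the left end the differences from the inner fractions were -0.19 (Igf2) to 0.35 (Slc6a13), and at the right end by -0.33 (Lum) to 0.27. None passed at the left (1.67% of all probes) or at the right (0.0602%) in limma. At an unadjusted p under 0.05 the counts were 0 and 0, against 11.0% and 5.55% of all probes. Opposite ends were compared in the same fit, which shares the inner fractions. The anterior minus posterior difference ran from -0.42 (Aldh1a2) to 1.28 (Dcn, SE 0.46, adjusted p = 0.093) and 0 genes passed, against 18.4% of all probes, with 2 genes under an unadjusted p of 0.05. The ventral minus dorsal difference ran from -0.01 (Ptgds) to 1.10 (Dcn, SE 0.46), with 0 called against 3.26% and 1 under an unadjusted p of 0.05. For right minus left the range was -0.42 to 0.11, with 0 called against 0.0109% and 0 at an unadjusted p.

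For Ptgds the 4 coronal and horizontal ends lay within 0.84 and 1.02, closer to each other than the SE of 0.21 of each. For Aldh1a2 the order was posterior, ventral (1.65), anterior, dorsal (0.89), left (0.26) and right (0.21), and neighbours in that order differed by less than about their SE of 0.34 except between anterior and dorsal and between dorsal and left. For Dcn the order was anterior, posterior, ventral (1.08), right (0.27), left (0.18) and dorsal, and anterior and posterior differed by 1.28.

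**Figure D3:**
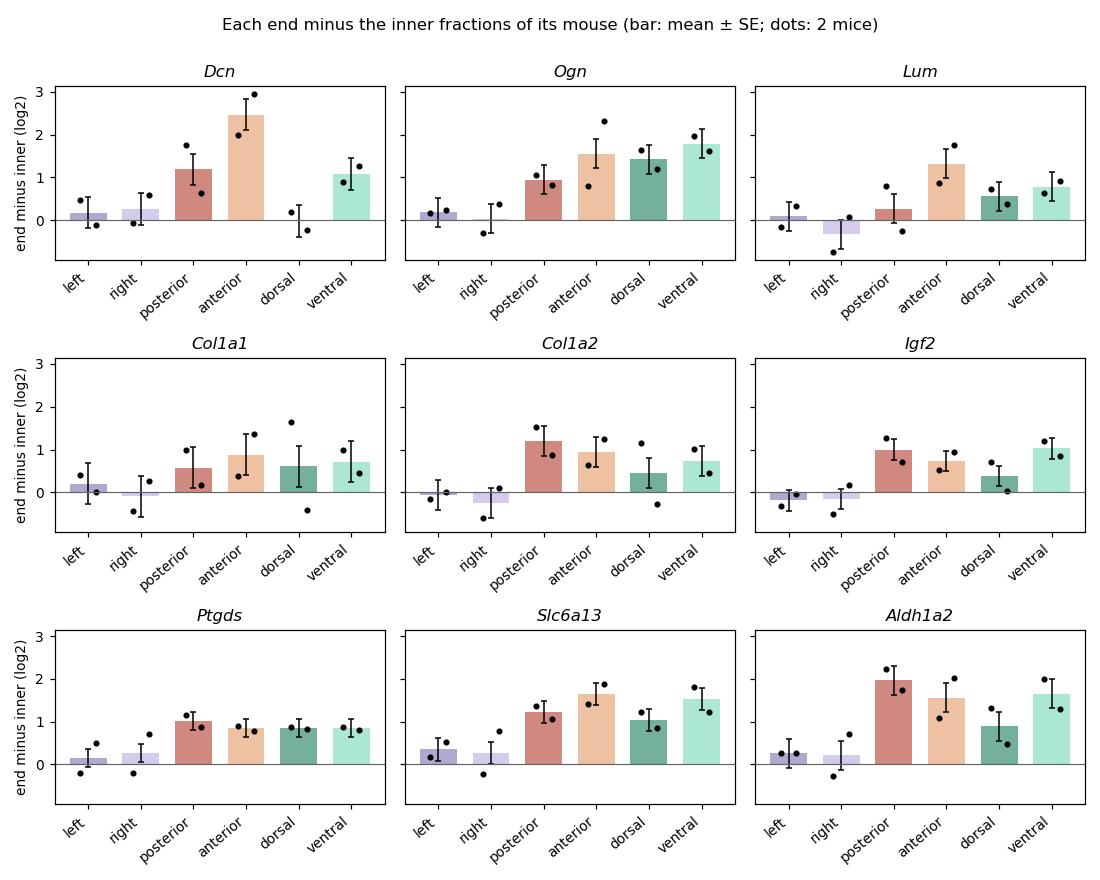
Each end minus the inner fractions of its own brain (log2), as the mean of 2 mice with its standard error (bars) and the 2 mice (dots). The left and right bars stay near 0 for all 9 genes, and the anterior bar of Dcn is the tallest.

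How far the pattern reached inward was measured 2 ways. An end was above the fraction next to it in 11 of 12 cases for Ogn, Slc6a13 and Aldh1a2, in 10 for Ptgds, in 9 for Dcn, in 8 for Lum, Col1a2 and Igf2 and in 7 for Col1a1. The mean step was 0.73 ± 0.15 (SE) for Aldh1a2 and 0.68 ± 0.16 for Slc6a13 (adjusted p of 0.0948 and 0.104, limma), and 0.20 for Col1a1. The second fraction from each end, set against the fractions deeper than it, differed by 0.13 (Lum) to 0.50 (Dcn). Here 0 of the 9 genes and 0.0% of all probes passed in limma, and at an unadjusted p under 0.05 only Dcn did, against 1.35% of all probes. In the coronal brains alone this difference was 1.25 and 1.56 for Aldh1a2 and 1.01 and 1.23 for Slc6a13, while in the sagittal brains it was negative for both genes.

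Along the coronal axis the levels also varied among the inner fractions, which the comparison of ends did not use. Their mean profile, centred on each brain, began at 1.17 in C1, was at 0.34 in C5, at -0.92 in C10 and ended at 0.78 in C13. In Co it began at 0.59, stood at 0.14 in Co6, reached -1.03 in Co11 and ended at 1.55 in Co16. C5 and Co6 are partners in the pairing of the study, and so are C10 and Co11. Slc6a13 was at 1.41, 2.09 and 0.73 in C4, C5 and C7 and at 1.42, 2.32 and 1.3 in Co5, Co6 and Co8. Aldh1a2 was at 0.68, 1.27 and 0.15 in the same C fractions and at 0.26, 1.19 and 0.25 in those of Co. An inner rise was counted where C5 was above C4 and C7 and Co6 above Co5 and Co8, without regard to C6 and Co7. It was present for 6 of the 9 genes, not for Lum, Col1a2 or Ptgds, and for 9.36% of all probes. Dcn was higher still 1 fraction further forward, at 2.97 in C6 and 3.70 in Co7. The inner rise was described after its values were seen and was not tested.

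**Figure D4:**
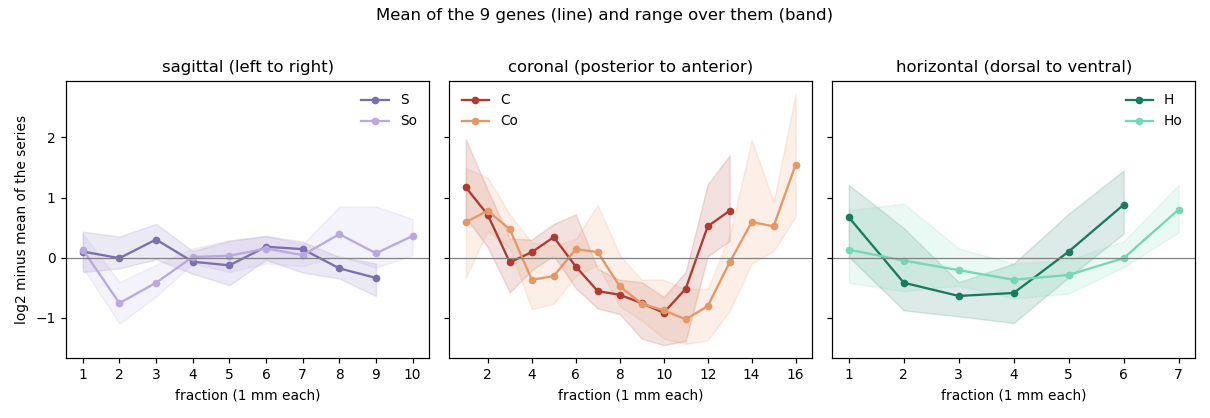
Mean over the 9 genes of the log2 level minus the mean of the series (lines) and the range over the genes (bands), by fraction. The coronal lines run from high ends over an inner maximum at C5 and Co6 to the lowest levels at C10 and Co11, and the horizontal lines are lowest in the middle.

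Over the 28 pairs of fractions that the study treats as replicates between brains, 8 of 9 genes varied in limma's moderated F test, where 61.1% of all probes did. Aldh1a2 had the largest F of the 9, 9.35 (adjusted p = 1.72e-07), followed by Dcn with 7.76 (adjusted p = 1.21e-06) and Ogn with 6.79. Ptgds, with an F of 1.94, did not pass (adjusted p = 0.064). The 28 pairs come from the same 6 mice, and with the mouse as a block 9 of 9 genes passed, among 31361 probes against 22351 without it. With median scaling 9 passed as well. The lowest of the 28 pair means was that of C10 and Co11 for 7 genes, not for Ogn or Col1a1, and for 2.11% of all probes. The highest pair mean was that of C1 and Co2 for Col1a2, Igf2, Ptgds and Aldh1a2, and that of C13 and Co15 for Dcn and Slc6a13. The brains of a pair differed most for Col1a1 in C12 and Co14, by 1.92, against a median gap of 0.26.

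Among themselves, the 9 genes correlated over the 61 fractions, after centring on each brain, with a median r of 0.78 over 36 pairs of genes. The points share arrays and brains, so these values are a description. The closest pairs were Ogn and Slc6a13 (r = 0.959), Slc6a13 and Aldh1a2 (r = 0.954) and Ogn and Aldh1a2 (r = 0.929), followed by Ptgds with Aldh1a2 (0.926) and with Slc6a13 (0.922). Col1a1 and Col1a2, the chains of 1 protein, had r = 0.905. The loosest pair was Dcn and Col1a1 (r = 0.575). Within single brains, r of Ogn and Aldh1a2 stayed between 0.916 and 0.988, whereas that of Dcn and Ptgds ran from -0.229 to 0.882.

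Of 15109 other named genes, the profile most like the mean of the 9 was that of Mpzl2 (r = 0.967 over 61 fractions), an adhesion protein of the immunoglobulin family. It was followed by Slc6a20a (0.947), an imino acid transporter, Serping1 (0.947), the C1 inhibitor, Gstm2 (0.944), Rcn3 (0.943), C1qtnf2 (0.940), Uaca (0.940), Adamts2 (0.939), which trims procollagen, Itih2 (0.938) and the complement gene C2 (0.932). Their end minus inner differences lay between 0.58 (Serping1) and 1.05 (Mpzl2), and 0 of these 10 genes passed (adjusted p between 0.072 and 0.262, limma). Taken singly, Ogn was closest to Fmod (0.962), a proteoglycan of its class, both collagens to Col3a1 (0.923 for Col1a1 and 0.938 for Col1a2), Igf2 to Cp (0.930), Slc6a13 to Gstm2 (0.960), Lum to Serpinh1 (0.847), the collagen chaperone, and Dcn to Lamb2 (0.844). Ptgds (0.930) and Aldh1a2 (0.971) were closest to Mpzl2.

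Neighbours in the genome were looked at for the clusters of proteoglycan genes. Omd lies next to Ogn in GRCm38.p6 and was at 1.19 ± 0.27 (SE) at the ends over inner fractions (adjusted p = 0.0667). Aspn, beyond Omd, was at 0.30 (adjusted p = 0.102), and Ecm2, also in the list of neighbours, at 0.09 (adjusted p = 0.807, limma). Kera, beyond Lum, was well above background on 4 arrays, and Epyc, next to it and well above background on 54, was at 0.40 (adjusted p = 0.513). Slc6a12, next to Slc6a13, was at 0.78 and higher in 4 of 6 mice (adjusted p = 0.271). Ins2, next to Igf2, was at -0.01.

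Of 39 other meningeal genes measured, 7 rose at the ends at the adjusted threshold, against 0.522% of all probes, and 0 fell. The median difference was 0.61, against 0.02 over all probes. At an unadjusted p under 0.05 in limma, 29 were higher, against 12.6% of all probes, and 2 were lower, Zic1 at -0.89 and Lama1 at -0.39. Slc47a1, an organic cation exporter, was higher by 1.35 ± 0.21 (SE, adjusted p = 0.038), Cdh1, the epithelial cadherin of arachnoid cells, by 1.25 ± 0.22 (adjusted p = 0.0447), Dpp4, a surface peptidase, by 1.23 ± 0.15 (adjusted p = 0.0277) and Nupr1 by 1.07 ± 0.15 (adjusted p = 0.0348). Each of these 4 was higher in 6 of 6 mice, S included. The others called were Slc22a6, S100a6 and Igfbp6. The calls at the ends depend on single mice. Over all probes, 0 were called higher without So, Co, H or Ho, 12 without C, 1 without the fraction Co16, 0 without So1 and 0 at an adjusted p under 0.01, and this touches each gene called here and among the 10 largest. In 19 of the 39 genes all 6 mice were higher at the ends, which held for 8.6% of all probes.

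Among genes that passed the adjusted threshold and were higher in 6 of 6 mice, the 10 with the largest measured difference included Bmp15. The others were Dapl1, Msln, Tspan8, Slc47a1, Fgfbp1, Cdh1, Dpp4, Fam180a and Ranbp3l, with differences of 1.08 to 1.68. Msln, the mesothelial protein mesothelin, was higher by 1.63 ± 0.14 (SE, adjusted p = 0.0204), by 1.27 to 2.09 in the single mice. Bmp15 was not well above background on any inner array and was so on 5 of 12 ends, so that it entered the test through the ends alone. Its other ends were not well above background either, so no fold and no rank among the 10 is given. The call of Bmp15 is not read as a result.

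In the pathways of the 9 genes few others passed over both ends. The counts of genes that rose are to be read against 0.522% of all probes called higher. Those of genes higher at an unadjusted p under 0.05 are to be read against 12.6% of all probes. The share of all probes lower at that threshold is not given, so the counts of lower genes are not read as a result. Of 12 other leucine-rich proteoglycans 0 rose, with a median of 0.22 and Fmod at 0.79 (adjusted p = 0.0871), and 4 were higher and 1 lower at an unadjusted p under 0.05. Of 26 genes of fibrillar collagen and its processing 0 rose, with a median of 0.10. At an unadjusted p under 0.05, 7 were higher, such as Adamts2 at 0.87, and 2 lower. In the comparison of single ends, 11 of the 26 were called higher at the anterior end, against 10.6% of all probes. At the posterior end 7 were, against 7.34%, and at the other ends 0. Of 16 genes of the insulin-like growth factor pathway only Igfbp6, a binding protein that prefers Igf2, rose, by 0.79 ± 0.11 (adjusted p = 0.0331), and 3 were higher and 2 lower at an unadjusted p. Of 18 prostaglandin genes 0 rose (median 0.29, 9 higher and 1 lower at an unadjusted p), of 15 Slc6 transporters 0 (median -0.26, 1 higher, Slc6a20a at 0.59, and 2 lower), and of 20 retinoic acid genes 0 (median 0.04, 3 higher and 3 lower). Among the last, Crabp2, a carrier of retinoic acid that was well above background on 38 of 61 arrays, was at 1.13 ± 0.23 (adjusted p = 0.0611). The related enzymes Aldh1a1 (0.03) and Aldh1a3 (0.40) were not close to the threshold over both ends. In the comparison of single ends, Aldh1a3 was called higher at the anterior (2.04) and dorsal ends (1.41; adjusted p of 0.000666 and 0.00823, limma). Aldh1a1 was called at the posterior end (1.45, adjusted p = 0.035), and Crabp2 at the posterior (1.36) and anterior ends (1.89).

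Among markers of other cells, only genes of the choroid plexus were called, all of them lower at the ends. Over all probes 448 of 36573 were called lower, and 12.6% were higher at an unadjusted p under 0.05. The counts of higher genes below are to be read against the 12.6%. The share of all probes lower at an unadjusted p is not given, so the counts of lower genes are not read as a result. Choroid plexus epithelium, which also makes Igf2 and Ptgds, had 4 of 10 genes that fell at the ends (Otx2, Clic6, Folr1 and Kl), none that rose, and a median of -1.34, with Ttr at -2.21 (adjusted p = 0.0596). Without single mice, between 0 and 530 probes were called lower in all, with 0 without So or Co, and 5 and 1 without the single fractions Co16 and So1. Myelin genes had a median of -0.74 over 10 genes with 0 called and 10 lower at an unadjusted p under 0.05. At the posterior end, however, the myelin median was 1.17. Macrophages of the brain borders had a median of 0.64 over 8 genes with 0 called and 6 higher at an unadjusted p, led by Pf4 at 0.92. The 4 blood genes had a median of 0.81, with 0 called and 3 higher at an unadjusted p, and their summed level ran from 3.41 to 5.76 at the ends and from 2.04 to 4.81 inside. The part of blood and of border macrophages in the values of the 9 genes was not tested. Endothelium (median 0.21 over 10 genes, 5 higher at an unadjusted p under 0.05), mural cells (0.13 over 9, 3 higher and 1 lower), astrocytes (0.30 over 7, 3 higher), muscle and bone (0.28 over 9, 2 higher), pituitary (0.42 over 8, 1 higher) and neurons (-0.08 over 8, 1 higher and 1 lower) had 0 genes called by limma. All 10 endothelial genes had a difference above 0.

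**Figure D5:**
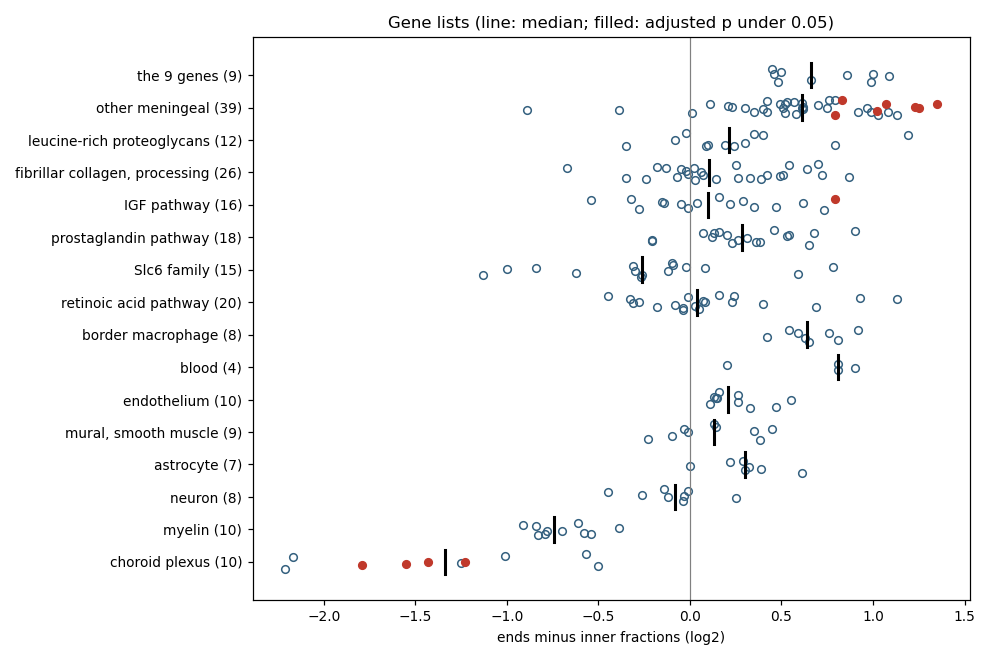
End minus inner difference (log2) of every gene measured in each list, with the number of genes in parentheses, the median (line) and genes called by limma (filled). The other meningeal genes center near the 9 genes, and choroid plexus and myelin genes lie below 0.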

How the data were processed

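RNA of 61 brain fractions was hybridized to single-color Agilent arrays, and the authors extracted the spots with Agilent Feature Extraction 9.1.3.1. The deposited processed intensities are background-corrected. The deposited value table, of 36558 probes, holds intensities that the authors normalized per array, which served as an alternative. Outlier spots were left out, spots of a probe were averaged, and the 75th percentile over 41174 probes was subtracted from each log2 intensity. Probes well above background on at least 1 array (36573) were tested, and 22951 probes were named through RefSeq. For each mouse the mean of the ends minus that of the inner fractions was tested with limma 3.58.1 in R 4.3.3, with Benjamini-Hochberg adjustment and a threshold of 0.05. Each end was fitted with the mouse as a random block, and the 28 pairs of fractions with a moderated F test without a block (the mouse as a block was an alternative). Taking differences within a mouse pairs the fractions, since the labels name the series and the methods of the study give 1 brain to each series. As a check, the differences between the mice of a plane were correlated for 129 combinations of 2 positions (median r 0.682), and 120 exceeded 0.1. Python 3.11.15 (pandas 2.3.3, scipy 1.17.1) made the summaries, and the tests were tried on simulated data. The 9 genes and the gene lists were chosen with earlier results of these data known. Further genes named are the 10 most correlated with the mean of the 9, the closest to each of the 9, the 10 with the largest difference among genes called higher at the ends in 6 of 6 mice, up to 4 called genes a list and those that show whether a list is at background. Genes of lists named beyond these were chosen after their values were seen. Alternatives changed the scaling, background correction, filter, ends, scan day, slide, mice and block.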

Additional observations from a re-analysis of the deposited data

Results flagged for a closer look

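Single values far from the rest of their group were looked for in 45 groups, by the gap to the nearest value as a share of the range of the group, and chance marks about 1 in 20 such groups. For the difference of Ptgds between ends and inner fractions, the S mouse lay below the other 5 mice with a share of 0.662, past the critical value of the gap test (Dixon) for 6 values. Among the inner fractions of H, H5, next to the ventral end, was the highest for Ptgds (0.905), Slc6a13 (0.867) and Aldh1a2 (0.923). Among the inner fractions of So, So9 was the highest for Dcn (0.548) and So2 the lowest for Igf2 (0.624).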

How the results depend on the processing

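The 9 genes were higher at the ends in each setting run except in the sagittal mice alone, where Lum (-0.12), Col1a2 (-0.16) and Igf2 (-0.18) had the opposite sign. None of them was called by limma in the main setting, and 206 of their values under alternatives kept side and direction, while 20 passed the threshold. Calls among the 9 were 2 with median scaling and with the authors' values, 1 without scaling and with normexp and quantile normalization, 3 over probes detected on all arrays, and between 0 and 5 without single mice, with 5 without S. The fit with no replicate block, which does not pair fractions of a mouse, called 6. Without scaling the median of all probes was -0.22.

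Over all probes, 191 were higher and 448 lower at the ends. The number higher was 737 with median scaling, 123 without scaling, 752 with normexp and quantile normalization, 773 with the authors' values, 126 on linear intensities, 295 with a floor of 5, 946 over probes detected on all arrays, 29 with 2 outermost fractions, 45 within slides and 3347 with no replicate block. It was 0 against the neighbouring fraction, with ends of the main scan day, in the mice of each plane alone and at an adjusted p under 0.01. The number lower was 3661 without scaling, 1004 with normexp and quantile normalization, 729 over probes detected on all arrays, 214 with 2 outermost fractions, 60 within slides, 7 with ends of the main scan day and 2692 with no replicate block, and 0 in the other settings just named with 0 higher. Without single mice the number higher lay between 0 and 792 and the number lower between 0 and 530. Leaving out S gave 792 higher, So 0, C 12, Co 0, H 0 and Ho 0. Settings chosen after seeing the data gave 1 higher and 5 lower without Co16, 0 and 1 without So1, and 0 and 0 in the coronal and horizontal mice only. The cause was not tested.

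For each end, the 12 calls among the 9 genes became 0 and the 8170 probes higher became 42 against the neighbouring fraction only, and without Co16 9 calls were made. With no replicate block the calls numbered 12 again, with Dcn added at the posterior end and Slc6a13 lost at the dorsal end. Spots not well above background on many arrays limit Bmp15, Kera, Crabp2 and several pituitary genes.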
